A study of Mus musculus with 24 samples.

Results

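The 8 genes described here encode the AMP-activated protein kinase (AMPK) and the kinases that switch it on: the catalytic subunits Prkaa1 (alpha1) and Prkaa2 (alpha2), the scaffold subunits Prkab1 and Prkab2, the nucleotide-sensing subunits Prkag1 and Prkag2, and the upstream kinases Stk11 (LKB1) and Camkk2. They are 8 of the 14351 genes measured, and each was read by 1 probe set, found through its RefSeq accession. They were selected on their log2 ratios over the 8 groups of the study, so their values are given as a description and carry no test. Transcripts in the median and left liver lobes of mice were read on 24 Affymetrix 3′ arrays, 12 from young animals (aged 4 to 5 weeks) and 12 from adults (aged 12 to 14 months). At either age 3 mice were sham operated, and 3 each underwent partial hepatic ischemia, a stop of blood flow to part of the liver, for 30, 60 or 90 min. The labels name no strain, sex or genotype, and do not say whether blood flow was restored before the tissue was taken. The titles put a second number after the ischemia minutes, the same in every ischemia group, with no meaning given.

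AMPK is a heterotrimer of 1 alpha, 1 beta and 1 gamma subunit that senses a falling cellular energy charge. AMP and ADP bind the gamma subunit, and a kinase, mainly LKB1 or, when calcium rises, CaMKK2, phosphorylates the activation loop of the alpha subunit. In liver the active enzyme is known for restraining fatty acid, cholesterol and glucose synthesis and for promoting fat oxidation and autophagy. It is controlled largely by phosphorylation and nucleotide binding, and neither is measured by transcript arrays.

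The catalytic subunits took different courses, Prkaa2 above sham and Prkaa1 at or below it, so the 250 bases before the transcription start of each are shown. They are from RefSeq on GRCm38.p6, which held start windows for all 8 genes, and lie at chr4:105109899-105110148 on the minus strand for Prkaa2 and at chr15:5143611-5143860 on the plus strand for Prkaa1. Capitals mark matches, on either strand, to the hypoxia response cores ACGTG and GCGTG, the cAMP response core TGACG or the full cAMP response element TGACGTCA, which contains TGACG.
Prkaa2: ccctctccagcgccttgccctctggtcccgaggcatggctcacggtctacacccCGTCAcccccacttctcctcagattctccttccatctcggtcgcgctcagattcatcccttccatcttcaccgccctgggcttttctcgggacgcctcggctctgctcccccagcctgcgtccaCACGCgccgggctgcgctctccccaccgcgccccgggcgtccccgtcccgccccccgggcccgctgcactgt
Prkaa1: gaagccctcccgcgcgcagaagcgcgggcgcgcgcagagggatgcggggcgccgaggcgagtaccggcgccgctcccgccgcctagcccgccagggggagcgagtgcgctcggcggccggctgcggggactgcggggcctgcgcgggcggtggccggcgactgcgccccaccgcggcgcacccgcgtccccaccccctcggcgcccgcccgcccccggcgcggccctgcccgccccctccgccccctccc
The Prkaa2 stretch holds 1 TGACG, read here from the other strand as CGTCA and beginning 196 bases before the start, and 1 GCGTG, read as CACGC and beginning 72 bases before it. The Prkaa1 stretch holds none of these letters. Over the full windows of 300 bases, which run 50 bases past the start, Prkaa2 had 72.7% G and C and 35 CpG, and Prkaa1 82% and 52, against medians of 52.7% and 7 over 32851 mouse windows. A hypoxia core stood in 43.8% of all windows (ACGTG in 19.6%, GCGTG in 32.4%), TGACG in 20.8% and TGACGTCA in 1.79%. The 8 genes had 10 windows, as Prkag2 has more than 1. Of these windows 7 held a hypoxia core and 3 held TGACG. Counted by gene, 5 had a window with a hypoxia core and 3 a window with TGACG, and such matches are a description of sequence only.

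The deposited values are linear ratios in which 1 is the mean of the 3 sham arrays of a gene in mice of that age. Sham livers of the 2 ages therefore cannot be compared, no level of a gene or of a tissue marker is kept, and no gene's level can be set against another's. Array medians lay between 0.955 and 1.02, and the number of arrays, 3 per group, limits the precision. Because the tissue is bulk liver, fewer cells of a type and less RNA per cell cannot be told apart. The comparisons within an age share their sham arrays. Markers of some liver cell types moved with ischemia, most of all those of Kupffer cells in adults. The median log2 ratio of 12 Kupffer cell markers averaged -0.07, -0.45 and -0.33 over the arrays at 30, 60 and 90 min in young mice and -0.61, -0.68 and -1.37 in adults, where the arrays at 90 min ranged from -1.82 to -1.07. Sham arrays ranged from -0.19 to 0.27 for this list in young mice and from -0.31 to 0.40 in adults, and the young 30 min arrays overlapped with them. The 10 sinusoidal endothelial markers averaged -0.26, -0.32 and -0.34 in young and -0.24, -0.31 and -0.41 in adult mice. The 10 stellate cell markers averaged -0.17, -0.42 and -0.60 in young and -0.06, -0.06 and -0.19 in adult mice. The 10 hepatocyte markers lay between -0.17 and -0.07 in young mice and between -0.28 and -0.12 in adults. The 9 T and NK cell markers averaged 0.14 to 0.18 in adults and 0.01 to 0.04 in young mice, and the averages of cholangiocyte, neutrophil and erythroid markers lay between -0.08 and 0.11. Such medians can hide members that go opposite ways. At 90 min in adults the log2 differences of the neutrophil markers ran from -1.31 to 0.41, with 3 above and 3 below 0. Only 6 of 8 listed neutrophil and 3 of 6 listed erythroid markers were measured. The part of these shifts in the values below was not tested.

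Prkaa2, the catalytic subunit best known from muscle and heart and present in hepatocytes beside alpha1, had the widest range of group means of the 8 genes when sham is included. In young mice the sham arrays read 0.999, 0.975 and 1.03. After 30 min the ratios were 1.58, 1.43 and 1.69 (mean 1.57 ± 0.132, SD, n = 3), after 60 min 2.17, 1.48 and 1.61 (1.76 ± 0.365), and after 90 min 2.16, 2.29 and 1.46 (1.97 ± 0.45). Every young ischemia array lay above all young sham arrays, and the spread was widest at 60 and 90 min, where single arrays exceeded 2. On the log2 scale the differences from sham were 0.64, 0.79 and 0.95, each ± 0.15 (SE from the limma fit, n = 3 per group). They exceeded those of 99.7%, 99.9% and 99.8% of genes. After quantile normalization the differences were 0.66, 0.79 and 0.76, so the value at 90 min no longer exceeded that at 60 min.

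In adult mice the Prkaa2 sham arrays read 0.92, 1.15 and 0.928. The ratios were 1.26, 1.21 and 1.26 after 30 min (1.24 ± 0.0303, SD, n = 3), 1.38, 1.15 and 1.3 after 60 min (1.28 ± 0.117), and 1.68, 1.34 and 1.41 after 90 min (1.48 ± 0.183). The groups did not overlap with sham at 30 and 90 min, whereas at 60 min the second array reached only the level of the highest sham array. The log2 differences were 0.32, 0.36 and 0.56, each ± 0.15 (SE, n = 3 per group), above those of 98.3%, 96.5% and 99.5% of genes. Ordered by mean ratio, the groups ran from young 90 min through young 60, young 30, adult 90, adult 60 and adult 30 min to sham. Each neighbour in this order overlapped the next except adult 30 min and adult sham. At 30 and at 60 min all young ratios exceeded all adult ratios, and at 90 min the ages overlapped.

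The sample titles carry a code whose first part is shared by several arrays, with no meaning given. Set against the sham array of the same code and age, Prkaa2 lay above 0 in 14 of 15 ischemia arrays that could be paired in this way, with log2 differences from -0.00 to 1.20. Arrays of the same code share their sham array, so the 15 values are not independent. The first array of each young ischemia group had no sham array of its code. The same holds for the counts of 15 given below, and no such count was made over all genes. With that code as a block in the fit, the difference at 30 min in young mice was 0.49. The 8 markers of muscle, heart and brain, tissues rich in alpha2, averaged between -0.07 and 0.08 in the 6 ischemia groups on the log2 scale.

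**Figure D1:**
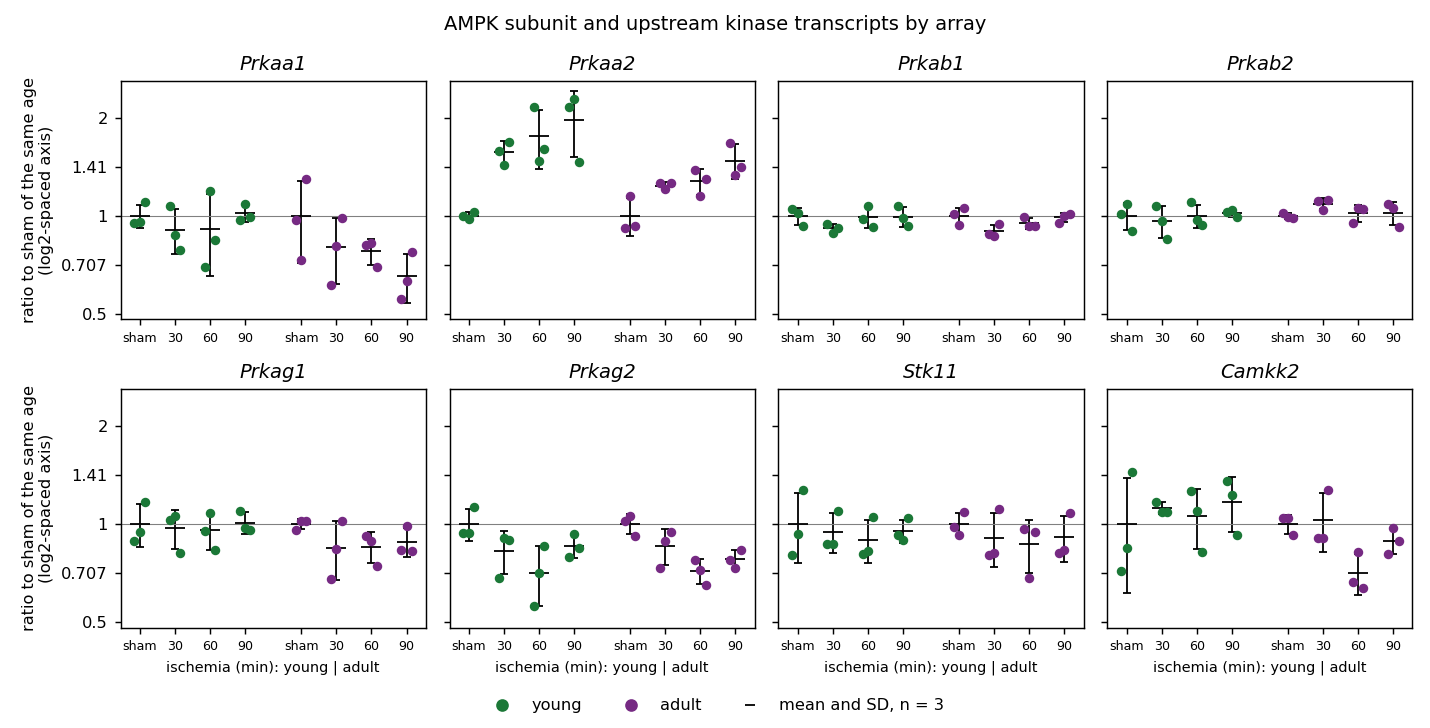
Ratio of each of the 8 genes to the mean sham array of its age, on a log2-spaced axis, for every array (dots; green young, purple adult), with the mean and SD of each group of 3 (black). All young Prkaa2 ischemia arrays lie between 1.43 and 2.29, above the young sham arrays, while Prkab1 and Prkab2 stay near 1 in every group.

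Prkaa1, the other catalytic subunit, read 0.948, 0.955 and 1.1 in young sham livers. Its mean ratio was 0.908 ± 0.144 at 30 min, 0.909 ± 0.256 at 60 min and 1.02 ± 0.0637 at 90 min (SD, n = 3 each), and each young group overlapped with sham. In adults the sham arrays themselves spread widely, at 0.97, 0.734 and 1.3. The adult ratios were 0.614, 0.81 and 0.985 after 30 min (0.803 ± 0.185), 0.811, 0.825 and 0.697 after 60 min (0.778 ± 0.0702), and 0.553, 0.631 and 0.776 after 90 min (0.653 ± 0.113). The second adult sham array, at 0.734, lay within the range of each adult ischemia group, so none of them stood apart. The log2 differences in adults were -0.30, -0.33 and -0.59, each ± 0.20 (SE, n = 3 per group), and in young mice -0.15, -0.17 and 0.03. Without the second adult sham array the difference at 90 min was -0.79, and without the third -0.38. Against sham arrays of the same title code, Prkaa1 was below 0 in 10 of 15 arrays, from -1.04 to 0.33.

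Within each array the log2 ratio of Prkaa2 minus that of Prkaa1 describes the relative course of the catalytic subunits. It was 0.00 ± 0.09 in young sham livers (SD, n = 3), then 0.80 ± 0.28, 0.97 ± 0.66 and 0.93 ± 0.32 at 30, 60 and 90 min. In adults it was 0.03 ± 0.57 in sham livers, then 0.66 ± 0.35, 0.72 ± 0.22 and 1.19 ± 0.38. All young ischemia arrays, the lowest at 0.32, lay above the highest young sham array, at 0.08. Among adults the second sham array reached 0.65, above single arrays at 30 and 60 min, and the 90 min group alone, from 0.87 to 1.61, stood clear of sham. Both genes contributed to it in adults, and mainly Prkaa2 in young mice. Being a difference of ratios, it does not give the proportion of the subunits in the enzyme.

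**Figure D2:**
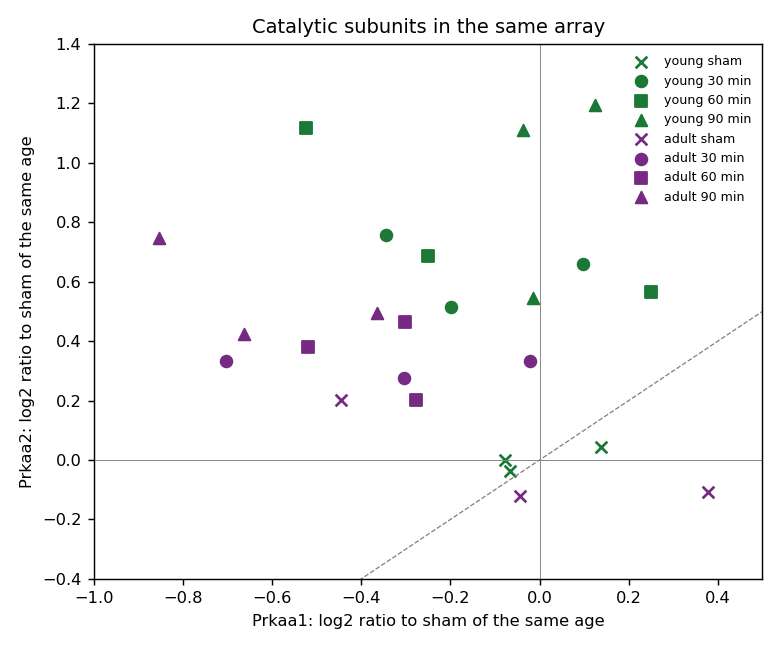
Log2 ratio of Prkaa2 (vertical axis) against that of Prkaa1 (horizontal axis) in each of the 24 arrays, by age (colour) and group (symbol), with a dashed line where both are equal. Every ischemia array lies above the dashed line, by 0.32 to 1.64, and the adult ischemia arrays also lie to the left of 0.

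The beta subunits, scaffolds that carry a glycogen-binding module and hold alpha and gamma together, stayed close to sham. Mean ratios of Prkab1, the isoform prominent in mouse liver, ran from 0.897 ± 0.0398 at 30 min in adults to 0.995 ± 0.069 at 90 min in young mice (SD, n = 3). Prkab2 ran from 0.963 ± 0.111 at 30 min in young mice to 1.09 ± 0.0431 at 30 min in adults. Over all group means, sham included, the range was 0.16 for Prkab1 and 0.19 for Prkab2 on the log2 scale, and 0.22 for Stk11, the next narrowest. The adult 30 min arrays of Prkab2, at 1.11, 1.04 and 1.12, lay above the adult sham arrays at 1.02, 0.994 and 0.985, by a log2 difference of 0.13 ± 0.09 (SE, n = 3 per group). All other groups of either gene overlapped with sham.

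The gamma subunits bind the adenine nucleotides. Prkag2, the long isoform known from inherited disease of the heart, was the gene of the set whose arrays most often lay wholly below sham, in 5 of 6 comparisons. In young mice its sham arrays read 0.936, 0.935 and 1.13. Its ratios were 0.681, 0.904 and 0.894 at 30 min (0.826 ± 0.126, SD, n = 3), 0.561, 0.708 and 0.854 at 60 min (0.708 ± 0.147) and 0.791, 0.934 and 0.845 at 90 min (0.857 ± 0.0719). All young ischemia arrays lay below the sham arrays, by a narrow margin for the second array at 90 min. Adult sham arrays read 1.02, 1.06 and 0.921. The adult ratios were 0.734, 0.884 and 0.943 at 30 min (0.854 ± 0.108), 0.776, 0.724 and 0.649 at 60 min (0.716 ± 0.064) and 0.777, 0.733 and 0.832 at 90 min (0.78 ± 0.0496). They overlapped with sham at 30 min and not at 60 or 90 min.

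The log2 differences of Prkag2 were -0.28, -0.51 and -0.22 in young mice and -0.23, -0.48 and -0.36 in adults at 30, 60 and 90 min, each ± 0.14 (SE, n = 3 per group). Of all genes, 6.95%, 1.67% and 9.76% had a lower difference at these times in young mice, and 14%, 9.92% and 15.9% in adults. In both ages the lowest mean of Prkag2 was at 60 min, where the arrays overlapped with those at 90 min. Quantile normalization moved the adult 60 min difference to -0.27, and the title code as a block moved the young 90 min difference to -0.06. Against sham arrays of the same title code Prkag2 was below 0 in 13 of 15 arrays, from -0.55 to 0.03. Prkab1 was below 0 in as many of them, over a narrower range from -0.20 to 0.04.

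Prkag1, the widely expressed short gamma isoform, had mean ratios of 0.97 ± 0.134, 0.957 ± 0.126 and 1.01 ± 0.0801 in young mice at 30, 60 and 90 min (SD, n = 3), all overlapping with sham. Adult means were 0.845 ± 0.174, 0.85 ± 0.0938 and 0.882 ± 0.0913. The adult 60 min arrays, at 0.919, 0.886 and 0.743, lay below the adult sham arrays at 0.959, 1.02 and 1.02, and the other adult groups overlapped with them. The log2 difference at 60 min was -0.24 ± 0.14 (SE, n = 3 per group), and -0.10 after quantile normalization.

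Of the upstream kinases, Stk11 encodes LKB1, the main activator of AMPK in liver. Its mean ratios lay between 0.893 ± 0.133 and 0.953 ± 0.0778 in young mice and between 0.865 ± 0.16 and 0.91 ± 0.147 in adults (SD, n = 3), and every group overlapped with sham. Its young sham arrays read 0.8, 0.93 and 1.27, a spread wider than any of its group differences.

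Camkk2, the calcium-dependent activator, had the most scattered young sham arrays of the set, at 0.718, 0.843 and 1.44. Young ischemia means were 1.12 ± 0.0449, 1.06 ± 0.225 and 1.17 ± 0.226 at 30, 60 and 90 min (SD, n = 3), each overlapping with sham. The third young sham array was the highest of the 3 for 6 of the 8 genes, and without it the young 30 min difference of Camkk2 moved from 0.22 to 0.52 on the log2 scale. Without the first young sham array it was 0.02, and with the title code as a block it turned to -0.16. Both young 30 min arrays that share a code with a sham array lay below it, at -0.40 and -0.40, so the young 30 min values of Camkk2 have no settled direction. Adult sham arrays were tighter, at 1.04, 1.04 and 0.922. The adult ratios were 0.903, 0.906 and 1.27 at 30 min (1.03 ± 0.212), 0.661, 0.822 and 0.636 at 60 min (0.706 ± 0.101), and 0.811, 0.972 and 0.884 at 90 min (0.889 ± 0.0807). Only the 60 min group lay wholly below sham, with a log2 difference of -0.51 ± 0.21 (SE, n = 3 per group), or -0.29 after quantile normalization.

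**Figure D3:**
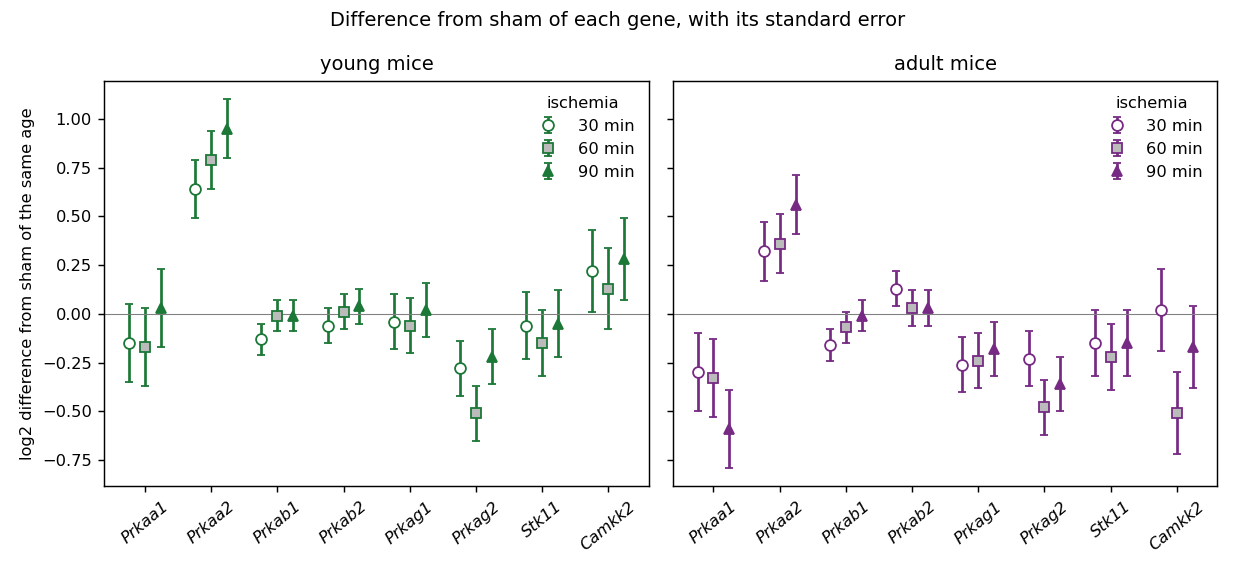
Log2 difference from sham of the same age for each of the 8 genes at 30, 60 and 90 min, with its standard error from the limma fit (n = 3 per group; left young, right adult mice). Prkaa2 lies above 0 in all 6 comparisons, from 0.32 to 0.95, and Prkag2 below 0 in all 6, from -0.51 to -0.22.

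Counted over the set, the ischemia and sham arrays did not overlap for 2 of the 8 genes at 30, 60 and 90 min in young mice (Prkaa2 and Prkag2 each time). The same held for 14.8%, 13.3% and 13.9% of all genes. In adults it was 2 at 30 min (Prkaa2 and Prkab2), 3 at 60 min (Prkag1, Prkag2 and Camkk2) and 2 at 90 min (Prkaa2 and Prkag2), where 11.5%, 37% and 39.1% of all genes did not overlap. The median log2 difference of the 8 genes was -0.06, -0.04 and 0.02 in young and -0.15, -0.23 and -0.16 in adult mice, against -0.02 at each time over all genes in young mice and -0.03, -0.05 and -0.04 in adults.

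The threshold used over the whole table was an adjusted p under 0.05 in limma, with Benjamini-Hochberg adjustment over 14351 genes. In young mice 0.0557%, 0.0279% and 0.181% of genes passed it at 30, 60 and 90 min, and of the 8 genes 0, 0 and 1, which was Prkaa2. In adults 0%, 11.9% and 7.45% of genes passed it, and of the 8 genes 0, 1 (Prkag2) and 1 (Prkaa2). Since these contrasts chose the genes, nothing is read from the counts. At 30 min in adults, where no gene passed, 1486 genes had an unadjusted p under 0.05. Prkaa2 at 90 min in young mice was no longer past the threshold without the first or the second sham or the first or the second ischemia array, nor with the title code as a block. In adults the count at 60 min was 0 without any one sham array or the second or the third ischemia array. At 90 min it was 0 without the first or the third sham array or any one ischemia array, and 2 without the second sham array.

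The adult response was set against the young response as the difference between their log2 differences. No array of either age shared the first part of its title code with the other age. A difference between the ages therefore cannot be told apart from a difference between codes, and the block adjusted within each age only. For Prkaa2 it was -0.32, -0.43 and -0.39 at 30, 60 and 90 min, each ± 0.21 (SE, n = 3 per group), the adult value being the lower at every time. With other settings on this scale or single arrays left out, its weakest values were -0.16, -0.27 and -0.16 at these times. For Prkaa1 it was -0.16, -0.16 and -0.62, each ± 0.29, and for Camkk2 -0.20, -0.64 and -0.45, each ± 0.29. The Camkk2 value at 30 min was 0.18 with the title code as a block, and 0.00 without the first and -0.50 without the third young sham array. At 90 min it was -0.24 and -0.75 without these arrays. Without the third adult sham array the Prkaa1 value turned to 0.05 at 30 min and to 0.05 at 60 min. It was 0.02 at 30 min without the first adult ischemia array and 0.06 at 60 min without the second young ischemia array. Prkag2 had values of 0.05, 0.03 and -0.14, each ± 0.20, all smaller than the error. Of all genes, 0%, 0% and 0% passed the threshold for this difference in limma at the 3 times, and none of the 8 did. Genes with an unadjusted p under 0.05 numbered 302, 978 and 1612.

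By the root mean square difference of group mean log2 ratios over the 6 ischemia groups, the genes nearest to Prkaa2 were Crebbp (0.094), a transcriptional coactivator with acetyltransferase activity, Ccnb2 (0.137), a mitotic cyclin, and Inhba (0.153), the activin A subunit. Mean log2 ratios of Crebbp were 0.56, 0.76 and 0.99 in young mice at 30, 60 and 90 min and 0.21, 0.50 and 0.46 in adults. Inhba differed from Prkaa2 in order, being highest at 60 min in young mice, at 0.98. These genes were picked for nearness over the same group means, so their likeness to Prkaa2 follows from the choice.

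**Figure D4:**
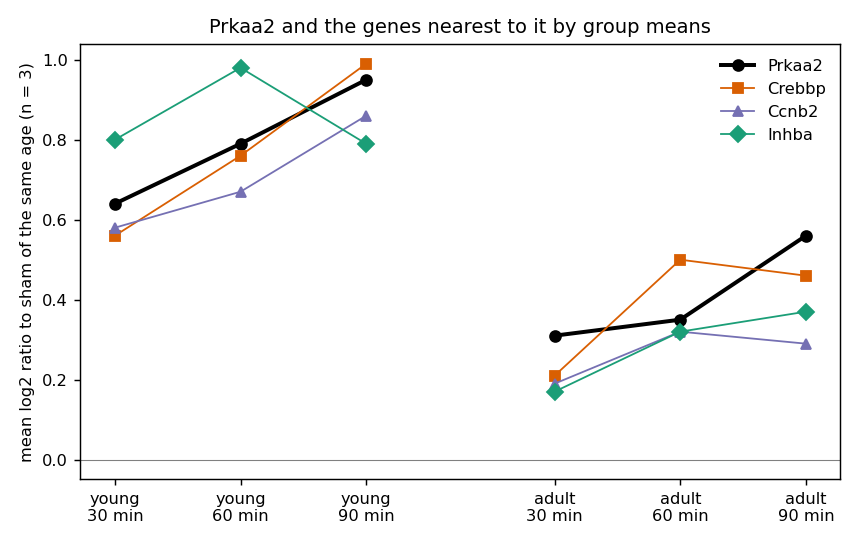
Mean log2 ratio to sham of the same age (n = 3) in the 6 ischemia groups for Prkaa2 and the 3 genes with the smallest root mean square difference from it. Prkaa2 and Crebbp are both highest at 90 min in young mice, at 0.95 and 0.99, and all 4 genes lie lower in adult than in young mice at each time. The 3 genes were picked for nearness to these values, so a shared course is largely set by the choice.

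Other genes of the pathway, 110 measured in 8 lists, were tested in the same fit. Of these, 1 passed at 30 min in young mice and 0 at 60 and 90 min, where 22 and 16 had an unadjusted p under 0.05. Of all 14351 genes, 1498 and 1292 had such a p in limma at these times, and 1486 at 30 min in adults. In adults 0 passed at 30 min (17 with an unadjusted p under 0.05), 14 at 60 min (4 higher and 10 lower than sham) and 5 at 90 min (all lower). The shares at 60 and 90 min, 12.7% and 4.55%, stood beside 11.9% and 7.45% of all genes. The adult calls depended on scaling and on single arrays: after quantile normalization 0 of the 110 passed at either time. At 60 min the count was 0 without the first or the third sham array or the second or the third ischemia array, and 7 without the second sham array. At 90 min it was 0 without the third sham array and 2 without the first sham array or any one ischemia array. For the difference between the ages 0 passed in limma at each time, with 1, 6 and 9 genes at an unadjusted p under 0.05. Of all 14351 genes, 302, 978 and 1612 were under it.

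Among 9 genes of the LKB1 complex and other activating inputs, 2 fell in adults at 60 and at 90 min and none rose. Map3k7, the kinase TAK1, which can also phosphorylate the alpha subunit, had ratios of 0.708, 0.595 and 0.616 at 90 min against sham arrays of 1.04, 0.916 and 1.04. It fell by 0.65 ± 0.11 on the log2 scale (SE, n = 3 per group; limma adjusted p = 0.0101), and by 0.58 at 60 min (adjusted p = 0.0266). At 90 min it passed with 5 of 6 arrays left out in turn. Cab39l, an MO25 scaffold of the LKB1 complex, fell by 0.43 ± 0.12 at 90 min (adjusted p = 0.0344). The median of the list was -0.38 at 60 min and -0.34 at 90 min in adults.

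Among 12 brakes and lysosomal partners of AMPK, 2 fell at 60 min in adults. Both encode phosphatases of the types that can remove the activating phosphate. Ppp2ca, the catalytic subunit of protein phosphatase 2A, had ratios of 0.692, 0.728 and 0.568 against sham arrays between 0.94 and 1.06, and fell by 0.60 ± 0.17 (SE, n = 3 per group; limma adjusted p = 0.0344). Ppm1b, a phosphatase of the 2C family, fell by 0.47 ± 0.15 (adjusted p = 0.0427).

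Among 12 genes of adenylate kinases and AMP handling, 1 rose and 1 fell at 60 min in adults. Ak3, a mitochondrial matrix kinase that uses GTP to phosphorylate AMP, fell by 0.47 ± 0.12 (SE, n = 3 per group; limma adjusted p = 0.0319). Ampd1, the muscle-type AMP deaminase, rose by 0.45 ± 0.14 (adjusted p = 0.0448), from sham arrays between 0.925 and 1.06 to 1.35, 1.28 and 1.47. Among 12 AMPK-related kinases, most of which LKB1 also activates, Mark4 alone passed, higher by 0.34 ± 0.11 at 60 min in adults (limma adjusted p = 0.0461).

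Among 15 lipid and glucose enzymes and regulators listed as AMPK substrates, 1 rose and 1 fell at 60 min in adults. Gys1, the muscle-type glycogen synthase, rose by 0.48 ± 0.14 at 60 min in adults (SE, n = 3 per group; limma adjusted p = 0.0403), with its lowest ischemia array, at 1.21, below its highest sham array, at 1.25.

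Among 14 genes of mTORC1 signalling, autophagy and translation, 1 fell at 30 min in young mice and 1 at 60 min in adults. The list holds AMPK substrates and genes that act with them. Atg14, which directs the lipid kinase complex that starts autophagosomes, had ratios of 0.406, 0.513 and 0.618 at 30 min in young mice against 0.921, 0.892 and 1.19 in sham, and fell by 0.97 ± 0.16 (SE, n = 3 per group; limma adjusted p = 0.018). It was the 1 pathway gene past the threshold in young mice. It did not pass without the third sham array, or without the first or the second ischemia array, or after quantile normalization. Its other differences ran from -0.55 to -0.26 and did not pass. Rheb, the GTPase that activates mTORC1, had ratios of 0.648, 0.632 and 0.611 at 60 min in adults and fell by 0.66 ± 0.17 (adjusted p = 0.0313).

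Among 18 genes of transcription and mitochondrial control listed as AMPK substrates, 1 rose and 1 fell at 60 min and 1 fell at 90 min in adults. Tfeb, a transcription factor of lysosome formation, rose by 0.57 ± 0.16 at 60 min (SE, n = 3 per group; limma adjusted p = 0.0364), to 1.47, 1.58 and 1.34. Hnf4a, a nuclear receptor of hepatocyte identity and also one of the hepatocyte markers above, fell by 0.56 ± 0.15 at 90 min (adjusted p = 0.0375). Mtfr1l, a regulator of mitochondrial shape, fell by 0.36 ± 0.12 at 60 min (adjusted p = 0.0465).

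Among 18 transcripts set downstream of AMPK in liver, 2 fell at 60 min and 2 at 90 min in adults. Scd1, the desaturase that makes monounsaturated fatty acids, had ratios of 0.596, 0.443 and 0.616 at 90 min and sham arrays of 1.15, 0.827 and 1.02. It fell by 0.86 ± 0.15 (SE, n = 3 per group; limma adjusted p = 0.0114) and by 0.65 at 60 min (adjusted p = 0.0295), and at 90 min it passed with 5 of 6 arrays left out in turn. Thrsp, a regulator of lipogenesis, fell by 1.36 ± 0.43 at 60 min (adjusted p = 0.0449). Sirt1, an NAD-dependent deacetylase, fell by 0.68 ± 0.19 at 90 min (adjusted p = 0.0411). Of the pathway genes named, none passed with every array left out in turn and Cab39l, Ampd1 and Thrsp passed in none of those fits. All of the named genes kept an unadjusted p under 0.05 in limma, which was largely fixed in advance, since they were named for passing in these same arrays. At 60 and 90 min in adults 4773 and 4102 of all 14351 genes had such a p.

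**Figure D5:**
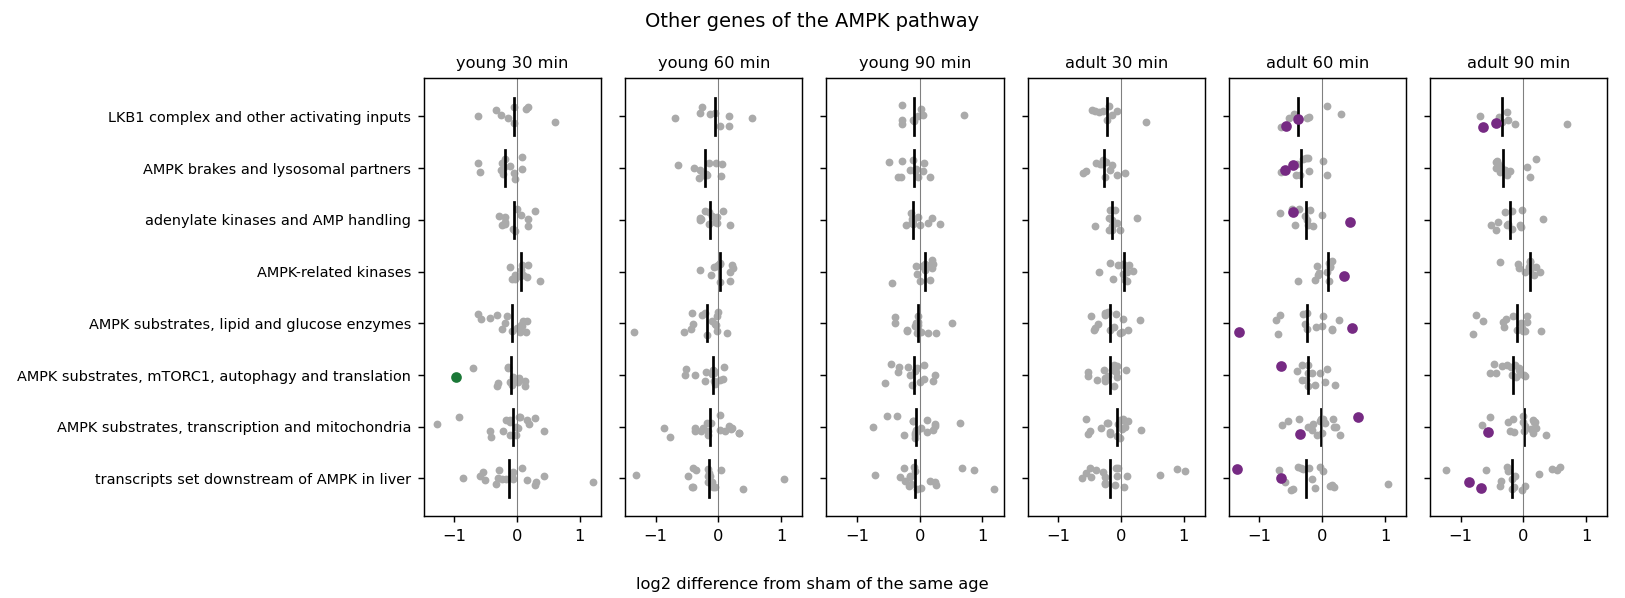
Log2 difference from sham of the same age for 110 further genes of the AMPK pathway in 8 lists (rows) and 6 comparisons (panels); grey dots did not pass the threshold, larger coloured dots did, and black bars are list medians. The coloured dots are 1 in young mice at 30 min, 14 in adults at 60 min and 5 in adults at 90 min.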

How the data were processed

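Biotin-labelled cRNA of liver RNA was put on 24 Affymetrix 3′ arrays, per the labels' protocols. The authors summarized the arrays with RMA, per the submitters' processing notes, with no version. The deposited values are linear ratios. In the files the 3 sham arrays of an age average 1 for each of 26180 probe sets, within 2e-07, so brightness is not kept. Each accession was paired with a symbol through the supplied RefSeq table: 15228 probe sets had 1 symbol and 10952 none. For 661 genes with several probe sets 1 was kept, by type of accession and then the lowest number, leaving 14351 genes.

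Log2 ratios of all arrays were fitted with 8 group means in limma 3.58.1 (R 4.3.3), with 16 residual and 4.53 prior degrees of freedom. Each ischemia group was compared with sham of its age, and the adult with the young response, two-sided, at a Benjamini-Hochberg adjusted p under 0.05 over genes. Groups came from the sample labels. Replicate numbers name samples only and pair none. Some arrays of the same age share the first part of a title code, which was tried as a block. The labels count mice per group, and p-values measure the spread between these arrays.

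The 8 genes, the pathway lists and the marker lists were chosen with earlier results of these data known. The genes named are the 8, up to 4 genes per pathway list with the largest difference among those past the threshold in any ischemia comparison, and the 3 genes nearest to Prkaa2, which was also the gene of widest range, sham included. Of the genes this rule names, 1 is not reported here. Alternatives were quantile normalization, median centring, this block, the arrays of an age alone, averaging all probe sets of a gene, log2(ratio + 16) and each array left out in turn. The fit was tested on simulated data. Of the genes listed, Prkag3, Fnip2, Ak5, Sik3, Acaca, Acacb and Tbc1d4 were not analysed here.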

Additional observations from a re-analysis of the deposited data

How the results depend on the processing

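Over 72 differences of the 8 genes (6 ischemia comparisons and 3 differences between the ages), 900 of 912 alternative values moved by less than the spread between replicates and 12 by more. Much of this count was fixed in advance, so it does not measure stability. Each gene had 1 probe set, so averaging probe sets repeated the value, and the arrays of an age alone gave the same differences. Leaving out 1 of 3 arrays cannot move an ischemia difference past that spread. Of the 912 values, 92 turned sign, none of them a value past the threshold. Prkaa2 was above 0 in all 12 fits of each ischemia comparison, from 0.27 (adult 30 min) to 1.15 (young 90 min). These include the main fit and fits that repeat its difference. Its ischemia arrays lay at or above the highest sham array, so leaving out an array could not turn the sign. Only quantile normalization, centring and the block could have done so. Among the 8 genes, the count past the threshold changed as follows. At 60 min in young mice it was 1 (Prkaa2) with quantile normalization or median centring instead of 0. At 90 min in young mice it was 0 with the title code as a block and 0 to 1 with single arrays left out. At 60 min in adults it was 0 with quantile normalization, median centring or log2(ratio + 16), 2 with the block (Prkag2 and Camkk2) and 0 to 1 with arrays left out. At 90 min in adults it was 0 with quantile normalization, log2(ratio + 16) or the adult arrays alone, 2 with the block (Prkaa1 and Prkaa2) and 0 to 2 with arrays left out. Of the 110 pathway genes, the 1 at 30 min in young mice was 0 with quantile normalization or log2(ratio + 16) and 0 to 1 with arrays left out. With arrays left out the count was 0 to 3 at 90 min in young mice (3 without the third ischemia array) and 0 to 2 at 30 min in adults (2 without the third ischemia array). At 60 min in adults the 14 were 0 with quantile normalization, 4 with log2(ratio + 16), 5 with the adult arrays alone and 0 to 17 with arrays left out. At 90 min the 5 were 0 with quantile normalization, 9 with the block, 2 with log2(ratio + 16), 2 with the adult arrays alone and 0 to 5 with arrays left out. Over all genes the 1712 at 60 min in adults were 0 with quantile normalization, 465 with log2(ratio + 16), 587 with the adult arrays alone and 1 to 2177 with arrays left out. The 1069 at 90 min were 3, 480, 47 and 7 to 806. In young mice the 8, 4 and 26 genes at 30, 60 and 90 min were 46, 16 and 66 with the young arrays alone, and the 26 were 4 with the block and 2 to 52 with arrays left out. At 30 min in young mice log2(ratio + 16) gave 5 and left-out arrays 4 to 9. At 60 min quantile normalization gave 9, centring 7, the block 2 and left-out arrays 1 to 6. The 0 genes at 30 min in adults were 0 to 89 with arrays left out. The split into higher and lower calls at 60 min in young mice was 2 and 2, and 5 and 4 with quantile normalization, 5 and 2 with centring. The cause of these changes was not tested, other than that fewer arrays enter some fits. Member differences under log2(ratio + 16) are on another scale and were not compared. Ratios near 1 keep no signal over background, so dim probe sets could not be set aside.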
